A study of Mus musculus with 15 samples.

Results

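Chemokines and chemokine receptors were followed across 4 groups of mouse aortic valves. The members were all rows of the expression table named as a Ccl, Cxcl, Ccr or Cxcr gene, together with Cx3cl1, Cx3cr1, Xcl1 and Xcr1. This rule took 46 of the 18073 genes in the table. They were 28 ligands (17 CC, 9 CXC, and Cx3cl1 and Xcl1) and 18 receptors (10 CC, 6 CXC, and Cx3cr1 and Xcr1). The rule used gene names alone, though it was chosen with earlier results of these data known.

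The 15 mice, all C57BL/6 and 2 months old, each gave 1 library of leaflet RNA. The N1het_TercG2 group held 4 mice that were heterozygous for Notch1 and, as generation 2 Terc-/- animals, had shortened telomeres. N1WT_TercG2 held 3 mice that were wild type for Notch1 and also generation 2 Terc-/-. N1het_TercWT held 4 Notch1 heterozygous mice with intact Terc and long telomeres, and N1WT_TercWT held 4 mice that were wild type for both genes. Terc encodes the RNA template of telomerase, and the title of the series ties telomere length to what follows from the loss of 1 allele of Notch1, a receptor needed for aortic valve development. All 15 samples shared a collagenase digestion of the leaflets (3 per mouse, 20 minutes, 37 °C) ahead of RNA isolation. What the mutant Notch1 allele lacks is not given in the labels.

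The authors deposited 1 pooled FPKM value (fragments per length of transcript and per total of the library) for each gene in each group. The spread between mice is therefore unknown, no value below carries an error, and no test between groups could be made. A log2 fold is log2(FPKM + 1) in the first named group minus that in the second, a scale that understates the change of low genes. A member counts as past 2-fold where this difference is at least 1 in size. The authors' deposited table also holds calls of different genes for 5 pairs of groups, and "rose" and "fell" are kept for those. The 5 comparisons share groups, so their values are not independent of each other.

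Chemokines are small secreted proteins that bind receptors of the G protein-coupled family and direct the movement of leukocytes. CC ligands act mainly on monocytes, lymphocytes, dendritic cells and eosinophils, while part of the CXC ligands attract neutrophils and others act on lymphocytes and progenitor cells. A healthy aortic valve leaflet consists of interstitial cells in collagen-rich matrix under an endothelial layer, with resident macrophages, and infiltrating leukocytes are known from calcified human valves.

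Several facts of the samples touch all members. Terc was listed at 0 in N1het_TercG2 and N1WT_TercG2, against 4.52 FPKM in N1het_TercWT and 1.42 FPKM in N1WT_TercWT. Notch1 stood at 23.3 FPKM in N1het_TercG2 and 16.6 FPKM in N1WT_TercG2, which goes against the labels, and at 25.1 FPKM in N1het_TercWT and 39.1 FPKM in N1WT_TercWT. The groups are named by their labels throughout. Summed over all genes the table held 590290 FPKM in N1het_TercG2 and 583151 in N1WT_TercG2, against 416875 in N1het_TercWT and 427784 in N1WT_TercWT. The 4 mitochondrially encoded genes made up 8.83% of the sum in N1het_TercG2 and 7.63% in N1WT_TercG2, against 2.89% in N1het_TercWT and 3.10% in N1WT_TercWT. Rescaling to an equal total without them moved the median log2 fold of all genes in the 3 comparisons across telomere settings. The shift lay between -0.27 and -0.30. In N1het_TercG2 over N1het_TercWT it took the ligands with a fold above 0 from 21 to 16 of 28. The receptors went from 10 to 5 of 18. Directions of small folds across telomere settings can thus turn with it, and not all of these are named below. The 7 interstitial cell and fibroblast markers summed to between 3059 and 5737 FPKM and the 6 endothelial markers to between 207 and 379.6 FPKM, with none listed at 0. The 5 cardiomyocyte markers summed to between 2807 and 4975 FPKM, so heart muscle RNA was present in all 4 groups. In such bulk samples fewer cells of a type and less RNA per cell cannot be told apart.

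The summed level of the 28 ligands named Ccl, Cxcl, Cx3cl or Xcl was highest in valves with both changes, and that of the 18 receptors was highest in Notch1 heterozygous valves with long telomeres. The 28 ligands summed to 1488 FPKM in N1het_TercG2, 794 FPKM in N1WT_TercG2, 755 FPKM in N1het_TercWT and 529.6 FPKM in N1WT_TercWT. The order turned when the platelet chemokines Ppbp and Pf4, which the naming rule does not take, were added, to 1861 FPKM in N1het_TercG2, 2281 FPKM in N1WT_TercG2, 872 FPKM in N1het_TercWT and 2939 FPKM in N1WT_TercWT. Among the 28, Cxcl2 was the highest ligand in 3 groups, with 22.4% of the sum in N1het_TercG2, 33.1% in N1WT_TercG2 and 18.5% in N1het_TercWT, and Ccl19 was the highest in N1WT_TercWT, with 17.8%. The 18 receptors summed to 139.6 FPKM in N1het_TercG2, 169 FPKM in N1WT_TercG2, 343 FPKM in N1het_TercWT and 138 FPKM in N1WT_TercWT. Ccr9 alone made up 44.8% of the receptor sum in N1het_TercWT. Of the 28 ligands, 17 (60.7%) had their highest value in N1het_TercG2, as did 4 of the 18 receptors, while 19.0% of all genes were highest in that group. These are counts of the deposited values. After rescaling without mitochondrially encoded genes, Ccl12, Ccl5, Cxcl10 and Cxcl16 were highest in N1het_TercWT instead.

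**Figure D1:**
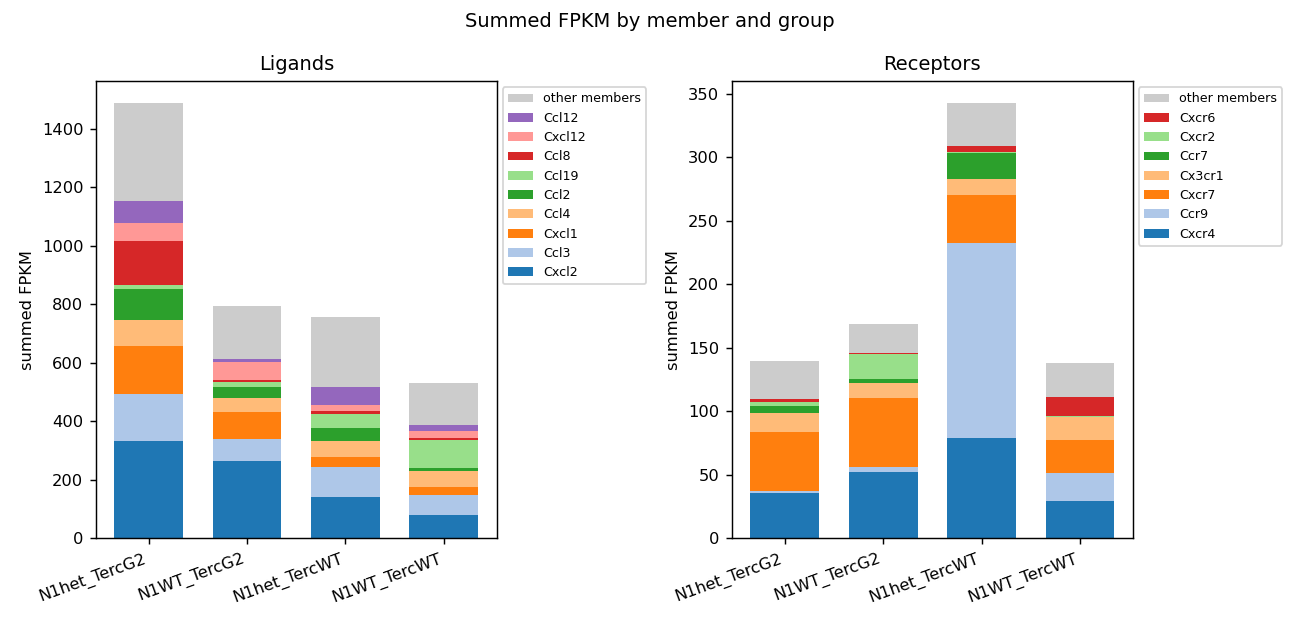
Stacked bars show the summed FPKM of the 28 ligands (left) and the 18 receptors (right) in each group, with the members of the highest mean level coloured and the others in grey; the vertical axes differ. The ligand bar is tallest in N1het_TercG2 at 1488 FPKM, and the receptor bar is tallest in N1het_TercWT at 343 FPKM, where Ccr9 takes the largest share.

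Members ranged from 333 FPKM, for Cxcl2 in N1het_TercG2, to values listed at 0. In all, 27 of the 46 reached 1 FPKM in every group, and Ccl28 and Ccr6 stayed under 1 FPKM in every group. At 10 FPKM or more stood 23 members in N1het_TercG2, 19 in N1WT_TercG2, 23 in N1het_TercWT and 18 in N1WT_TercWT. A value of 0 was listed for 2 members in N1het_TercG2, 8 in N1WT_TercG2, 0 in N1het_TercWT and 3 in N1WT_TercWT. Over all genes the share listed at 0 was 6.53% in N1het_TercG2, 11.1% in N1WT_TercG2, 1.38% in N1het_TercWT and 3.9% in N1WT_TercWT.

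**Figure D2:**
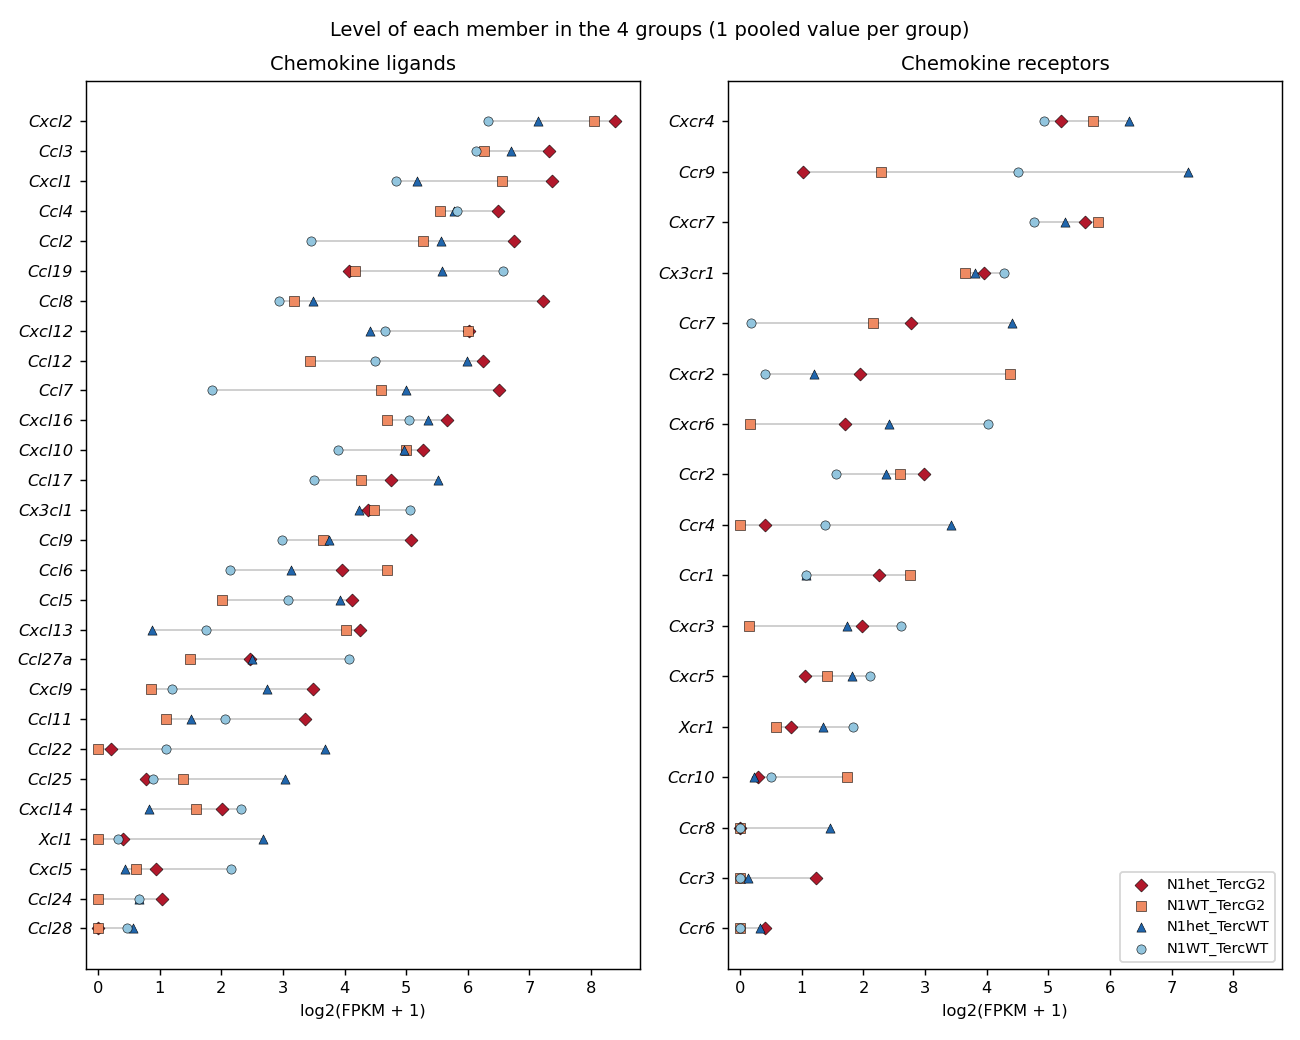
Each row is a member and each symbol its pooled level as log2(FPKM + 1) in 1 group, with ligands on the left, receptors on the right and members in order of their mean FPKM; 1 receptor is not drawn. The ligands from Cxcl2 to Ccl8 reach above 6 in at least 1 group, and the receptors Ccr9, Ccr7, Cxcr2 and Cxcr6 have the widest lines.

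With long telomeres, the CC ligands Ccl7, Ccl22, Ccl25, Ccl2 and Ccl17 and the receptors Ccr7, Ccr9 and Ccr4 were more than 2-fold higher in N1het_TercWT than in N1WT_TercWT. The authors' deposited table called 2 members in this comparison, both higher (Ccl7 and Ccr7), where it called 0.415% of all genes, 0.144% as higher and 0.271% as lower. No call column is headed with this pair of groups, and the column read here was assigned to it from the FPKM of its called genes. Past 2-fold were 18 of the 46 members (39.1%), against 18.4% of all genes. Of these 14 (30.4%) were higher, against 10.9% of all genes, and 4 (8.7%) were lower, against 7.53%. Past 4-fold were 9 of the 46, against 3.96% of all genes. The 4 members past 2-fold lower were Cxcl5, Cxcr6, Ccl27a and Cxcl14. The median log2 fold of the members was 0.43, and that of all genes was 0.09.

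With short telomeres, Ccl8, Ccl12, Cxcl9, Ccl11 and Ccl5 were the ligands with the largest log2 folds, each higher in N1het_TercG2 than in N1WT_TercG2. The authors' deposited table called 0 members here and 0.476% of all genes, 0.116% as higher and 0.36% as lower. This is the pair of groups in which Notch1 itself went against the labels. Past 2-fold were 16 of the 46 members (34.8%), against 23.2% of all genes. Of these 13 (28.3%) were higher, against 12.5%, and 3 (6.52%) were lower, against 10.8%. Past 4-fold were 6 of the 46, against 5.63% of all genes. All 3 members past 2-fold lower were receptors (Cxcr2, Ccr10 and Ccr9), and the 13 higher members held 10 ligands. The median log2 fold was 0.40 over the members and 0.06 over all genes.

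Between the Notch1 wild type groups, Cxcr2, Ccl7, Ccl6, Cxcl13 and Ccr7 were higher and Cxcr6, Ccl27a, Cxcr3, Ccl19 and Ccr9 lower in N1WT_TercG2 than in N1WT_TercWT. The authors' deposited table called 4 members, against 0.686% of all genes: 3 higher (Cxcr2, Ccl7 and Ccr7), against 0.437%, and 1 lower (Cxcr6), against 0.249%. Past 2-fold were 25 of the 46 members (54.3%), against 29.8% of all genes. Of these 14 (30.4%) were higher, against 8.9%, and 11 (23.9%) were lower, against 20.9%. Past 4-fold were 9 of the 46, against 7.49% of all genes. The split at 2-fold was 16 higher and 8 lower with folds centred on the median of all genes, and 10 higher and 13 lower after rescaling without mitochondrially encoded genes. The median was -0.14 over the members and -0.23 over all genes, and the sign of the members' median turned to 0.09 with centring.

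Between the Notch1 heterozygous groups (N1het_TercG2 over N1het_TercWT), Ccl8, Cxcl13 and Cxcl1 had the highest log2 folds and Ccr9, Ccl22 and Ccr4 the lowest. The authors' deposited table called 1 member, Ccr9, as lower, against 0.432% of all genes, 0.0775% called higher and 0.354% called lower. Past 2-fold were 21 of the 46 members (45.7%), against 21.5% of all genes. Of these 12 (26.1%) were higher, against 4.71%, and 9 (19.6%) were lower, against 16.8%. Past 4-fold were 8 of the 46, against 5.35% of all genes. After rescaling without mitochondrially encoded genes the split at 2-fold was 6 higher and 12 lower. The median of 0.28 over the members, against -0.24 over all genes, turned to -0.07 under that rescaling, while the members' median minus that of all genes was 0.52 as deposited and 0.48 rescaled.

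Valves with both changes against valves with neither gave the most calls among the members. The authors' deposited table called 5, against 0.526% of all genes: Ccl7, Ccl8, Ccl2 and Ccr7 higher, against 0.216%, and Ccr9 lower, against 0.31%. Past 2-fold were 28 of the 46 members (60.9%), against 24.7% of all genes. Of these 21 (45.7%) were higher, against 7.48%, and 7 (15.2%) were lower, against 17.2%. Past 4-fold were 12 of the 46, against 5.27% of all genes. The split at 2-fold was 15 higher and 10 lower after rescaling without mitochondrially encoded genes. Ligands made up 16 of the 21 higher members. The median log2 fold was 0.64 over the members, 1.22 over the ligands, 0.12 over the receptors and -0.16 over all genes; the receptor median turned to -0.10 under that rescaling. In the authors' deposited table, over the 5 comparisons, 7 of the 46 members (15.2%) were called at least 1 time, against 1.58% of all genes.

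**Figure D3:**
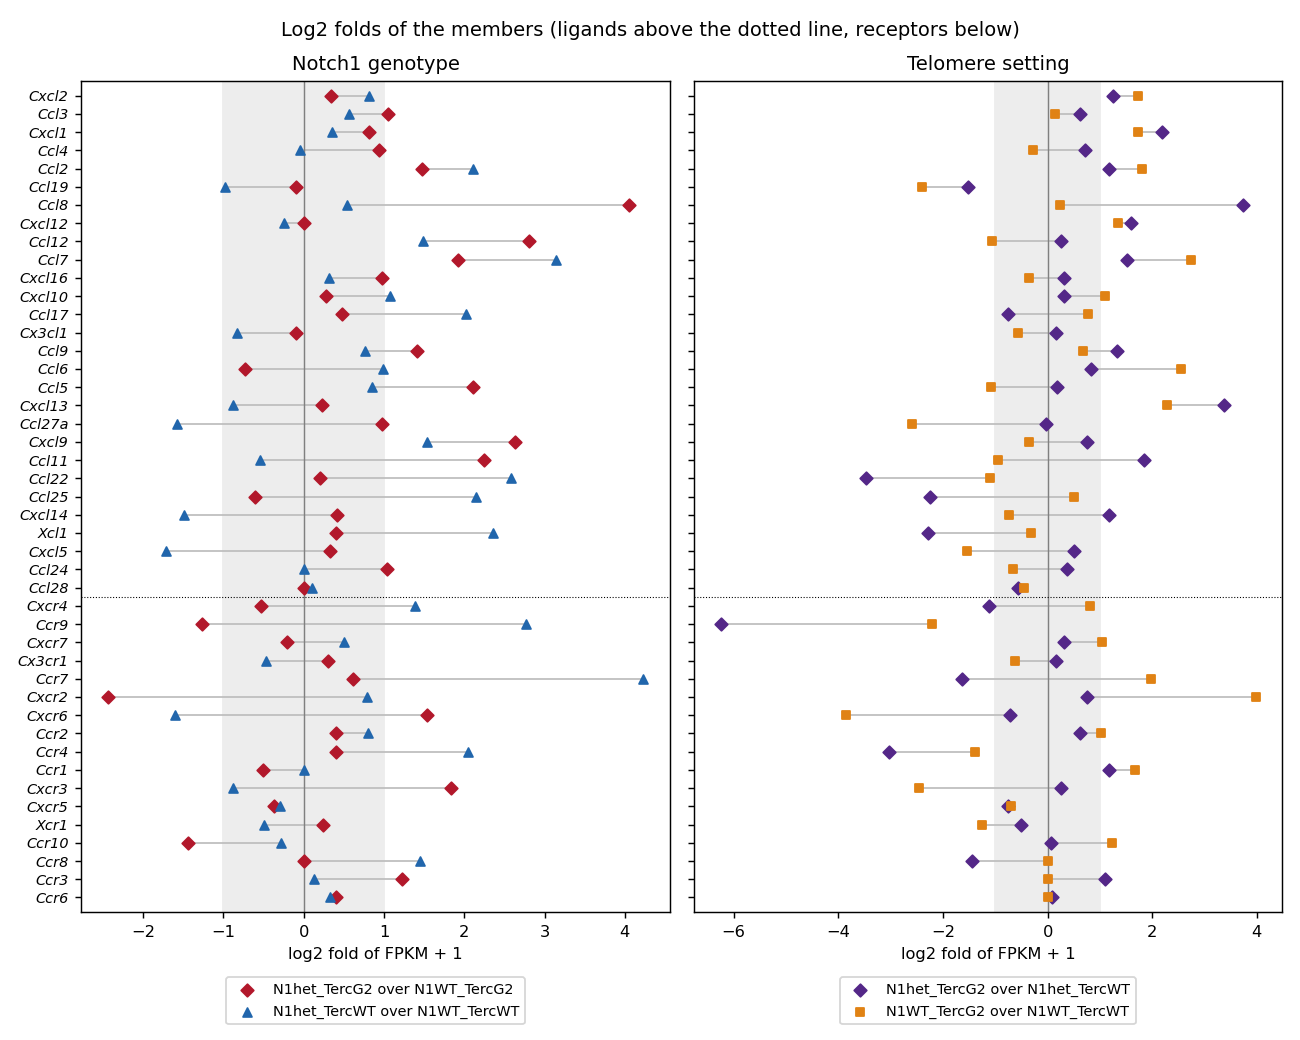
Symbols give each member's log2 fold of FPKM + 1, for Notch1 heterozygous over wild type on the left and short over long telomeres on the right, with ligands above and receptors (1 of them not drawn) below the dotted line; the grey band lies within 2-fold. Ccl8 stands apart from its own second symbol on both sides, and Ccr9 and Cxcr6 cross the band on the left.

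On the log2(FPKM + 1) scale, Ccl7 or Ccl8 had the largest difference of the 28 ligands in each of the 5 comparisons. By plain FPKM ratio lower genes passed them. Xcl1 had a ratio of 21.5 in N1het_TercWT over N1WT_TercWT, against 11.8 for Ccl7. Ccl22 had a ratio of 0.0128 in N1het_TercG2 over N1het_TercWT, against 14.6 for Ccl8. In mouse, Ccl7 is, with Ccl2 and Ccl12, a ligand of Ccr2, the receptor by which monocytes leave bone marrow and enter tissue. Ccl2, the main monocyte attractant, stood at 106 FPKM in N1het_TercG2, 37.5 FPKM in N1WT_TercG2, 46.2 FPKM in N1het_TercWT and 9.97 FPKM in N1WT_TercWT. It rose in the authors' deposited table in N1het_TercG2 against N1WT_TercWT (log2 fold 3.29). Each single change went with a level between those 2 groups, with log2 folds of 2.11 for N1het_TercWT and 1.81 for N1WT_TercG2, both over N1WT_TercWT.

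Ccl7, another monocyte attractant, had the same order of groups, with 90.2 FPKM in N1het_TercG2, 23.1 FPKM in N1WT_TercG2, 30.8 FPKM in N1het_TercWT and 2.61 FPKM in N1WT_TercWT. It rose in 3 comparisons of the authors' deposited table: N1het_TercWT over N1WT_TercWT (log2 fold 3.14), N1WT_TercG2 over N1WT_TercWT (2.74) and N1het_TercG2 over N1WT_TercWT (4.66). The lowest group was again the one with neither change.

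Ccl8, a ligand of Ccr2 in human cells and of Ccr8 in mouse, was high in 1 group alone, in which Ccr8 was listed at 0. Its level was 149 FPKM in N1het_TercG2, 8.04 FPKM in N1WT_TercG2, 10.2 FPKM in N1het_TercWT and 6.66 FPKM in N1WT_TercWT. The other 3 groups lay within 4 FPKM of each other. Ccl8 rose in N1het_TercG2 against N1WT_TercWT in the authors' deposited table (log2 fold 4.29). Its log2 folds of 4.05 over N1WT_TercG2 and 3.74 over N1het_TercWT were not called in the authors' deposited table.

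Ccl12, a mouse ligand of Ccr2, followed Notch1 genotype in its order of groups. It stood at 74.7 FPKM in N1het_TercG2, 9.81 FPKM in N1WT_TercG2, 62.5 FPKM in N1het_TercWT and 21.6 FPKM in N1WT_TercWT. Both Notch1 heterozygous groups were above both wild type groups. The log2 folds were 2.81 for N1het_TercG2 over N1WT_TercG2 and 1.49 for N1het_TercWT over N1WT_TercWT. Short over long telomeres gave 0.25 in the heterozygous and -1.06 in the wild type groups. Ccl11, or eotaxin, which attracts eosinophils through Ccr3, stood at 9.23 FPKM in N1het_TercG2, 1.15 FPKM in N1WT_TercG2, 1.86 FPKM in N1het_TercWT and 3.16 FPKM in N1WT_TercWT. It was higher in N1het_TercG2 than in the other 3 groups, by log2 folds from 1.30 to 2.25, and none of these was called in the authors' deposited table.

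In RefSeq gene order on build GRCm38 these 5 genes are direct neighbours on chromosome 11, in the order Ccl2, Ccl7, Ccl11, Ccl12 and Ccl8. All 5 were past 2-fold higher in N1het_TercG2 over N1WT_TercG2, against 12.5% of all genes, and in N1het_TercG2 over N1WT_TercWT, against 7.48%. In N1het_TercWT over N1WT_TercWT 3 of the 5 (Ccl2, Ccl7 and Ccl12) were past 2-fold higher, against 10.9%. In N1het_TercG2 over N1het_TercWT 4 of the 5 (Ccl2, Ccl7, Ccl8 and Ccl11) were, against 4.71%. Between N1WT_TercG2 and N1WT_TercWT they split. Ccl2 and Ccl7 were past 2-fold higher, against 8.9% of all genes, and Ccl12 past 2-fold lower, against 20.9%.

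The promoters of Ccl8 and Ccl12, neighbours with different group patterns, are shown as the 250 bases before each annotated start, 5′ to 3′ on the plus strand, from RefSeq on build GRCm38.p6. They were chosen with the levels known. Ccl8 is at chr11:82114935-82115184 and Ccl12 at chr11:82101595-82101844. Capitals are kept for the motif of the transcription factor NF-kappaB searched below, which neither holds.
Ccl8: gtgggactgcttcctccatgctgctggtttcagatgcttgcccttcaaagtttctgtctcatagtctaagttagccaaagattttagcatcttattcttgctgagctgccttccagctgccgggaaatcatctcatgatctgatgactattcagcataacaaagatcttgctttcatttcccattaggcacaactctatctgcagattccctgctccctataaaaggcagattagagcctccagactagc
Ccl12: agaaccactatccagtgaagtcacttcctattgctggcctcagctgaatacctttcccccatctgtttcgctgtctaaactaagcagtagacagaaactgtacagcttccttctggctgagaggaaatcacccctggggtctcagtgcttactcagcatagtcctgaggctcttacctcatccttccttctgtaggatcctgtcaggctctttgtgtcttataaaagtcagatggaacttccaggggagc

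Markers of macrophages and monocytes, cells that can carry Ccr2, were mostly highest in N1het_TercG2, as these ligands were. The sum of all 8 markers had the same order of the 4 groups as Ccl2 and Ccl7, while their sum without Lyz2 did not. The 8 macrophage and monocyte markers, none of them listed at 0, summed to 2742 FPKM in N1het_TercG2, 1391 FPKM in N1WT_TercG2, 1494 FPKM in N1het_TercWT and 998 FPKM in N1WT_TercWT. Lyz2, their most abundant gene, stood at 1839 FPKM in N1het_TercG2, 999 FPKM in N1WT_TercG2, 921 FPKM in N1het_TercWT and 554 FPKM in N1WT_TercWT. Without Lyz2 the other 7 summed to 903 FPKM in N1het_TercG2, 392 FPKM in N1WT_TercG2, 573 FPKM in N1het_TercWT and 444 FPKM in N1WT_TercWT. In N1WT_TercG2 over N1WT_TercWT, where Ccl2 and Ccl7 were higher, 6 of the 8 markers were lower, by log2 folds from -0.90 to -0.05, and Lyz2 (0.85) and Cd14 (1.43) were higher. Of the 8, 7 had their highest value in N1het_TercG2. The exception was Csf1r, the receptor that macrophages need to survive, with 41.6 FPKM in N1het_TercG2, 46.3 FPKM in N1WT_TercG2, 44.9 FPKM in N1het_TercWT and 47.8 FPKM in N1WT_TercWT. Ccr2 itself was low, at 6.94 FPKM in N1het_TercG2, 5.003 FPKM in N1WT_TercG2, 4.14 FPKM in N1het_TercWT and 1.94 FPKM in N1WT_TercWT, and was called in no comparison of the authors' deposited table. The mouse Ccr2 ligands Ccl2, Ccl7 and Ccl12 summed to 271 FPKM in N1het_TercG2, 70.5 FPKM in N1WT_TercG2, 139.5 FPKM in N1het_TercWT and 34.2 FPKM in N1WT_TercWT. The part of macrophage number in these values was not tested.

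**Figure D4:**
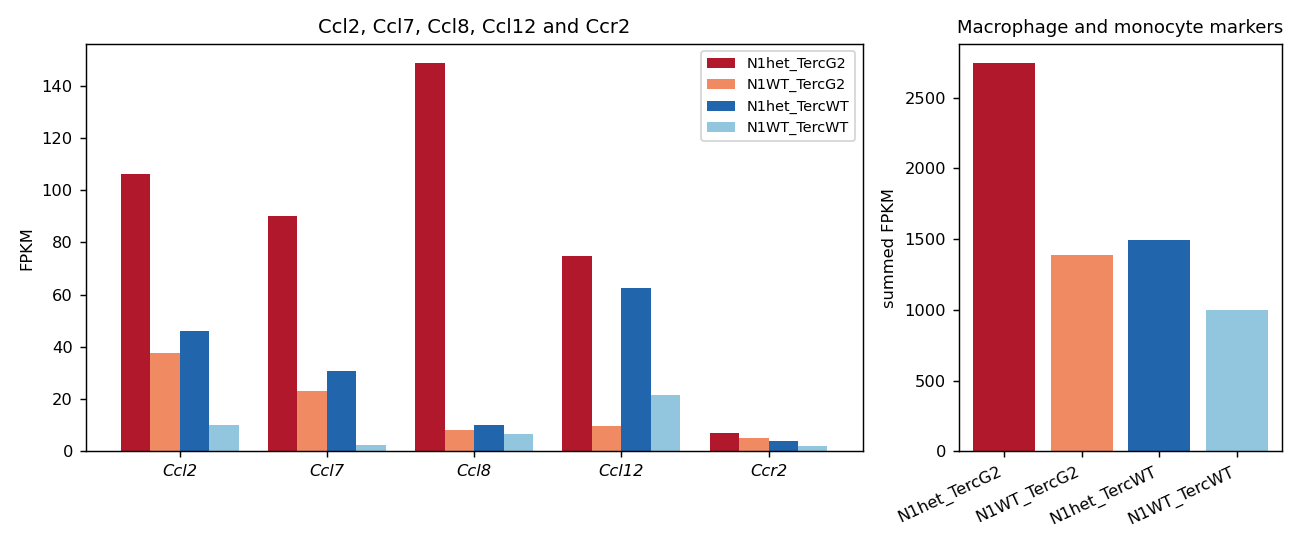
Bars give the FPKM of the ligands Ccl2, Ccl7, Ccl8 and Ccl12 and of Ccr2 in each group (left), and the summed FPKM of the 8 macrophage and monocyte markers (right). N1het_TercG2 is the tallest bar in each set, and Ccl8 differs from the others in that its remaining 3 bars lie between 6.66 and 10.2 FPKM.

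Ccl3 and Ccl4, which attract macrophages and activated T cells, varied less. Ccl3 was the most abundant CC ligand on average, at 159 FPKM in N1het_TercG2, 76.0 FPKM in N1WT_TercG2, 103 FPKM in N1het_TercWT and 69.1 FPKM in N1WT_TercWT. Ccl4 stood at 88.4 FPKM in N1het_TercG2, 45.6 FPKM in N1WT_TercG2, 53.8 FPKM in N1het_TercWT and 55.4 FPKM in N1WT_TercWT. Both were highest in N1het_TercG2, with a plain FPKM ratio of 2.30 over the lowest group for Ccl3, and the other 3 groups of Ccl4 lay within 10 FPKM of each other.

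Ccl9, a mouse ligand of Ccr1, was also highest in N1het_TercG2, with 32.6 FPKM in N1het_TercG2, 11.6 FPKM in N1WT_TercG2, 12.4 FPKM in N1het_TercWT and 6.91 FPKM in N1WT_TercWT. Ccl5, or RANTES, made by T cells among others, stood at 16.4 FPKM in N1het_TercG2, 3.01 FPKM in N1WT_TercG2, 14.3 FPKM in N1het_TercWT and 7.51 FPKM in N1WT_TercWT. Its order followed Notch1 genotype, with both heterozygous groups above both wild type groups, as for Ccl12. The log2 folds of Ccl5 by Notch1 genotype were 2.11 with short and 0.84 with long telomeres. Short over long telomeres gave 0.19 in the heterozygous and -1.08 in the wild type groups. Ccl6, another mouse ligand of Ccr1, had its peak elsewhere, at 14.5 FPKM in N1het_TercG2, 24.7 FPKM in N1WT_TercG2, 7.74 FPKM in N1het_TercWT and 3.41 FPKM in N1WT_TercWT, and was highest in N1WT_TercG2, the group with the highest neutrophil markers. Ccl5, Ccl9, Ccl6, Ccl3 and Ccl4 form a second run of neighbours on chromosome 11. Of these 5, none was past 2-fold in N1het_TercWT over N1WT_TercWT, against 18.4% of all genes. Past 2-fold higher were 3 in N1het_TercG2 over N1WT_TercG2, against 12.5%, and 4 in N1het_TercG2 over N1WT_TercWT, against 7.48%. In N1het_TercG2 over N1het_TercWT 1 was higher, against 4.71%. In N1WT_TercG2 over N1WT_TercWT 1 was higher, against 8.9%, and 1 lower, against 20.9%.

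Ccl19, which guides dendritic cells and naive T cells through Ccr7, was 1 of 2 CC ligands, with Ccl27a, that were highest in N1WT_TercWT. Its level was 15.8 FPKM in N1het_TercG2, 17.0 FPKM in N1WT_TercG2, 47.1 FPKM in N1het_TercWT and 94.1 FPKM in N1WT_TercWT, lower in both TercG2 groups than in both TercWT groups. The log2 fold was -1.52 for N1het_TercG2 over N1het_TercWT and -2.40 for N1WT_TercG2 over N1WT_TercWT, and neither was called in the authors' deposited table. Near-identical copies of Ccl19 are annotated (Ccl19-ps1, Ccl19-ps2 and Ccl19-ps3) and the gene overlaps 4930578G10Rik, which stood at 1.40 FPKM in N1het_TercG2, 9.86 FPKM in N1WT_TercG2, 9.03 FPKM in N1het_TercWT and 14.4 FPKM in N1WT_TercWT, so the level of Ccl19 is uncertain. The same holds for Ccl27a, an epithelial ligand of Ccr10 that overlaps Il11ra1 and has the near-identical copy Ccl27b. Ccl27a stood at 4.53 FPKM in N1het_TercG2, 1.82 FPKM in N1WT_TercG2, 4.66 FPKM in N1het_TercWT and 15.9 FPKM in N1WT_TercWT, and Il11ra1 at 7.50 FPKM in N1het_TercG2, 12.2 FPKM in N1WT_TercG2, 12.7 FPKM in N1het_TercWT and 20.8 FPKM in N1WT_TercWT. In all, 16 of the 46 members overlap another annotated gene in RefSeq, Ccl3 with Ccl4 and Ccr9 with Gm17021 among them, and without strand the reads of such pairs cannot be told apart.

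Ccl17 and Ccl22, made by dendritic cells and macrophages to attract Ccr4-bearing T cells, were highest in N1het_TercWT. Ccl17 stood at 25.9 FPKM in N1het_TercG2, 18.3 FPKM in N1WT_TercG2, 44.7 FPKM in N1het_TercWT and 10.3 FPKM in N1WT_TercWT. Ccl22 was at 0.152 FPKM in N1het_TercG2, listed at 0 in N1WT_TercG2, at 11.9 FPKM in N1het_TercWT and at 1.14 FPKM in N1WT_TercWT. Ccr4, a receptor of regulatory and helper T cells, had the same highest group, at 0.324 FPKM in N1het_TercG2, a listed 0 in N1WT_TercG2, 9.77 FPKM in N1het_TercWT and 1.61 FPKM in N1WT_TercWT. Ccl25, the thymic and intestinal ligand of Ccr9, stood at 0.714 FPKM in N1het_TercG2, 1.61 FPKM in N1WT_TercG2, 7.16 FPKM in N1het_TercWT and 0.850 FPKM in N1WT_TercWT. Xcl1, made by T and NK cells, had 0.320 FPKM in N1het_TercG2, a listed 0 in N1WT_TercG2, 5.43 FPKM in N1het_TercWT and 0.253 FPKM in N1WT_TercWT. All 5 of these genes had their highest value in the group with the highest T cell markers. The CC ligands Ccl24 and Ccl28 stayed between 0 and 1.05 FPKM in the 4 groups.

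The CXC ligands Cxcl1 and Cxcl2, which draw neutrophils out of the circulation through Cxcr2, were higher with short than with long telomeres in both Notch1 genotypes. Cxcl2 was the most abundant member of all, at 333 FPKM in N1het_TercG2, 263 FPKM in N1WT_TercG2, 139.6 FPKM in N1het_TercWT and 78.9 FPKM in N1WT_TercWT. Cxcl1 stood at 164 FPKM in N1het_TercG2, 93.2 FPKM in N1WT_TercG2, 35.1 FPKM in N1het_TercWT and 27.4 FPKM in N1WT_TercWT. Both short-telomere groups were above both long-telomere groups for each gene. The log2 folds of short over long were 1.25 for Cxcl2 and 2.19 for Cxcl1 in the heterozygous groups, and 1.72 and 1.73 in the wild type groups. No difference of these 2 genes was called in the authors' deposited table. Cxcl5, another ligand of Cxcr2, was low and ordered differently, at 0.910 FPKM in N1het_TercG2, 0.526 FPKM in N1WT_TercG2, 0.356 FPKM in N1het_TercWT and 3.46 FPKM in N1WT_TercWT.

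Cxcl1 and Cxcl2 are neighbours on chromosome 5, and their promoters are shown because they are known targets of NF-kappaB and had the same order of groups. They are the 250 bases before each annotated start, 5′ to 3′ on the plus strand, from RefSeq on build GRCm38.p6, at chr5:90890995-90891244 for Cxcl1 and chr5:90903649-90903898 for Cxcl2. Capitals mark matches to GGNNTTTCC, part of a common form of the NF-kappaB motif, on either strand.
Cxcl1: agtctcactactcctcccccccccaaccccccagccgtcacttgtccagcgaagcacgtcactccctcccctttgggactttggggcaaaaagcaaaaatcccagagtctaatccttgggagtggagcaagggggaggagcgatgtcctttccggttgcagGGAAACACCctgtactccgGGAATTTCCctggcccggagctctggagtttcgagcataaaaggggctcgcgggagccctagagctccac
Cxcl2: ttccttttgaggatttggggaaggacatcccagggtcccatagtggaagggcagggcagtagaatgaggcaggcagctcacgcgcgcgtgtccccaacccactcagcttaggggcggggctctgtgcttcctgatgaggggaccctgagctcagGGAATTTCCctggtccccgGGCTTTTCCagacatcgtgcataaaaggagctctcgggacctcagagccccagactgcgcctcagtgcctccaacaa
Each promoter held 2 matches, the first of them starting 89 bases before the annotated start of Cxcl1 and 96 bases before that of Cxcl2. The RefSeq table held 38 promoters of 34 members, of which 6 held this motif (Cxcl1, Cxcl2, Cxcl9, Cxcl10, Ccl9 and Ccr3), against 4.93% of 32851 promoters of the same length. The shorter GGGAA on either strand, which can overlap the longer motif, was held by 24 of the 38, against 56.2% of all promoters. Ccl8 held 3 copies of it and Ccl12 held 1. A match is a run of letters and not a shown binding site, and these counts say nothing of NF-kappaB in the valves.

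The neutrophil markers did not follow the same order as Cxcl1 and Cxcl2. The 7 neutrophil markers summed to 169 FPKM in N1het_TercG2, 1760.2 FPKM in N1WT_TercG2, 43.7 FPKM in N1het_TercWT and 16.0 FPKM in N1WT_TercWT, where Ngp and Camp were listed at 0. Both short-telomere groups were above both long-telomere groups here too, but all 7 were highest in N1WT_TercG2, while Cxcl1 and Cxcl2 were highest in N1het_TercG2.

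Cxcl12 and Cxcl13 shared the difference between short and long telomeres. Cxcl12, the stromal ligand of Cxcr4 that holds progenitor cells in their niche, stood at 63.5 FPKM in N1het_TercG2, 63.1 FPKM in N1WT_TercG2, 20.3 FPKM in N1het_TercWT and 24.2 FPKM in N1WT_TercWT. The 2 groups within each telomere setting differed by log2 folds of 0.01 and -0.25, while short over long telomeres gave 1.60 in the heterozygous and 1.34 in the wild type groups. Cxcl13, which attracts B cells through Cxcr5, stood at 18.0 FPKM in N1het_TercG2, 15.3 FPKM in N1WT_TercG2, 0.839 FPKM in N1het_TercWT and 2.37 FPKM in N1WT_TercWT. The summed B cell markers (5 genes) did not have this order, at 16.8 FPKM in N1het_TercG2, 11.8 FPKM in N1WT_TercG2, 16.7 FPKM in N1het_TercWT and 21.0 FPKM in N1WT_TercWT. The sum of the 6 endothelial markers did, at 379.6 FPKM in N1het_TercG2, 317 FPKM in N1WT_TercG2, 207 FPKM in N1het_TercWT and 238 FPKM in N1WT_TercWT. Singly, Pecam1, Tie1 and Vwf did not have it. The 7 interstitial cell and fibroblast markers summed to 4175 FPKM in N1het_TercG2, 5737 FPKM in N1WT_TercG2, 3059 FPKM in N1het_TercWT and 3745 FPKM in N1WT_TercWT. Most of that sum was Dcn, while Col1a1 was lower with short telomeres in both genotypes. The part of either cell type in the Cxcl12 values was not tested. Cxcl14, found in stroma and epithelia, stayed between 0.774 FPKM in N1het_TercWT and 4.01 FPKM in N1WT_TercWT.

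The interferon-inducible ligands of Cxcr3 were lowest in a Notch1 wild type group. Cxcl9 stood at 10.2 FPKM in N1het_TercG2, 0.810 FPKM in N1WT_TercG2, 5.67 FPKM in N1het_TercWT and 1.31 FPKM in N1WT_TercWT, with log2 folds of 2.63 for N1het_TercG2 over N1WT_TercG2 and 1.53 for N1het_TercWT over N1WT_TercWT. Cxcl10 was lowest in N1WT_TercWT, with 37.7 FPKM in N1het_TercG2, 30.9 FPKM in N1WT_TercG2, 30.3 FPKM in N1het_TercWT and 13.9 FPKM in N1WT_TercWT. Its gene lies within Art3, which differed by log2 folds of at most 0.80 in the same comparisons.

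The membrane-bound ligands varied less. Cxcl16, a scavenger receptor and ligand of Cxcr6, stood at 49.6 FPKM in N1het_TercG2, 24.6 FPKM in N1WT_TercG2, 39.9 FPKM in N1het_TercWT and 31.9 FPKM in N1WT_TercWT. Cx3cl1, the endothelial ligand of Cx3cr1, stood at 19.9 FPKM in N1het_TercG2, 21.4 FPKM in N1WT_TercG2, 17.7 FPKM in N1het_TercWT and 32.3 FPKM in N1WT_TercWT. No difference of either reached 2-fold on the log2(FPKM + 1) scale, and the plain FPKM ratio of Cxcl16 in N1het_TercG2 over N1WT_TercG2 was 2.01.

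Among the receptors, Ccr9 had the widest range. It guides developing T cells to the thymus and mature T cells to the gut, and stood at 1.03 FPKM in N1het_TercG2, 3.88 FPKM in N1WT_TercG2, 154 FPKM in N1het_TercWT and 21.7 FPKM in N1WT_TercWT. Ccr9 fell in 2 comparisons of the authors' deposited table, N1het_TercG2 against N1het_TercWT (log2 fold -6.25) and N1het_TercG2 against N1WT_TercWT (-3.48). Its difference between Notch1 genotypes had opposite directions, at -1.27 with short and 2.77 with long telomeres, and neither was called in the authors' deposited table.

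Ccr7, which brings T cells and dendritic cells to lymphoid tissue, was also highest in N1het_TercWT, at 5.80 FPKM in N1het_TercG2, 3.43 FPKM in N1WT_TercG2, 20.2 FPKM in N1het_TercWT and 0.133 FPKM in N1WT_TercWT. It rose against N1WT_TercWT in all 3 comparisons of the authors' deposited table that hold this group: N1het_TercWT (log2 fold 4.23), N1WT_TercG2 (1.97) and N1het_TercG2 (2.58). Its value in N1WT_TercWT was near 0, so these folds depend on the added 1 FPKM.

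Markers of T cells and thymocytes shared their highest group, N1het_TercWT, with Ccr9, Ccr7 and Ccr4, but not the order of the other groups. The 8 T cell markers summed to 19.0 FPKM in N1het_TercG2, 111 FPKM in N1WT_TercG2, 845 FPKM in N1het_TercWT and 105 FPKM in N1WT_TercWT, with all 8 highest in N1het_TercWT. The 5 markers of thymocytes, the immature T cells of the thymus, summed to 3.70 FPKM in N1het_TercG2, 77.8 FPKM in N1WT_TercG2, 489 FPKM in N1het_TercWT and 41.9 FPKM in N1WT_TercWT, with 4 of the 5 highest in N1het_TercWT and Ptcra listed at 0 in N1het_TercG2. Dntt, which adds bases to antigen receptor genes and is silent in mature T cells, stood at 0.198 FPKM in N1het_TercG2, 10.3 FPKM in N1WT_TercG2, 139 FPKM in N1het_TercWT and 10.9 FPKM in N1WT_TercWT. Ccr9 and the thymocyte sum had their highest value in N1het_TercWT and their lowest in N1het_TercG2. In N1WT_TercG2 relative to N1WT_TercWT, however, Ccr9 and Ccr4 were lower, while the thymocyte sum was higher and the T cell sum was 111 FPKM in N1WT_TercG2 and 105 FPKM in N1WT_TercWT. Ccr7 was lowest in N1WT_TercWT and Ccr4 in N1WT_TercG2. The part of thymic tissue in these values was not tested.

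Cxcr2, the receptor of neutrophils for Cxcl1 and Cxcl2, stood at 2.85 FPKM in N1het_TercG2, 19.8 FPKM in N1WT_TercG2, 1.28 FPKM in N1het_TercWT and 0.321 FPKM in N1WT_TercWT. It rose in N1WT_TercG2 against N1WT_TercWT in the authors' deposited table (log2 fold 3.98). The neutrophil markers given above were highest in the same group, and the order of all 4 groups was the same for Cxcr2 and for their sum. The part of neutrophil number in the Cxcr2 values was not tested.

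Cxcr6, a receptor of memory and innate-like T cells, ran the other way, at 2.25 FPKM in N1het_TercG2, 0.118 FPKM in N1WT_TercG2, 4.33 FPKM in N1het_TercWT and 15.2 FPKM in N1WT_TercWT. It fell in N1WT_TercG2 against N1WT_TercWT in the authors' deposited table (log2 fold -3.86). The gene sits within Fyco1, and the library kit kept no strand; Fyco1 stayed between 21.6 and 32.0 FPKM, with log2 folds of at most 0.41 in size. Cxcr3, the receptor of activated T and NK cells, had the same highest and lowest groups, at 2.94 FPKM in N1het_TercG2, 0.103 FPKM in N1WT_TercG2, 2.32 FPKM in N1het_TercWT and 5.09 FPKM in N1WT_TercWT, and was not called in the authors' deposited table. The T cell sum, highest in N1het_TercWT, did not share this order, nor did the sum of the 3 NK cell markers, which was 2.10 FPKM in N1het_TercG2, 9.49 FPKM in N1WT_TercG2, 14.9 FPKM in N1het_TercWT and 6.60 FPKM in N1WT_TercWT.

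**Figure D5:**
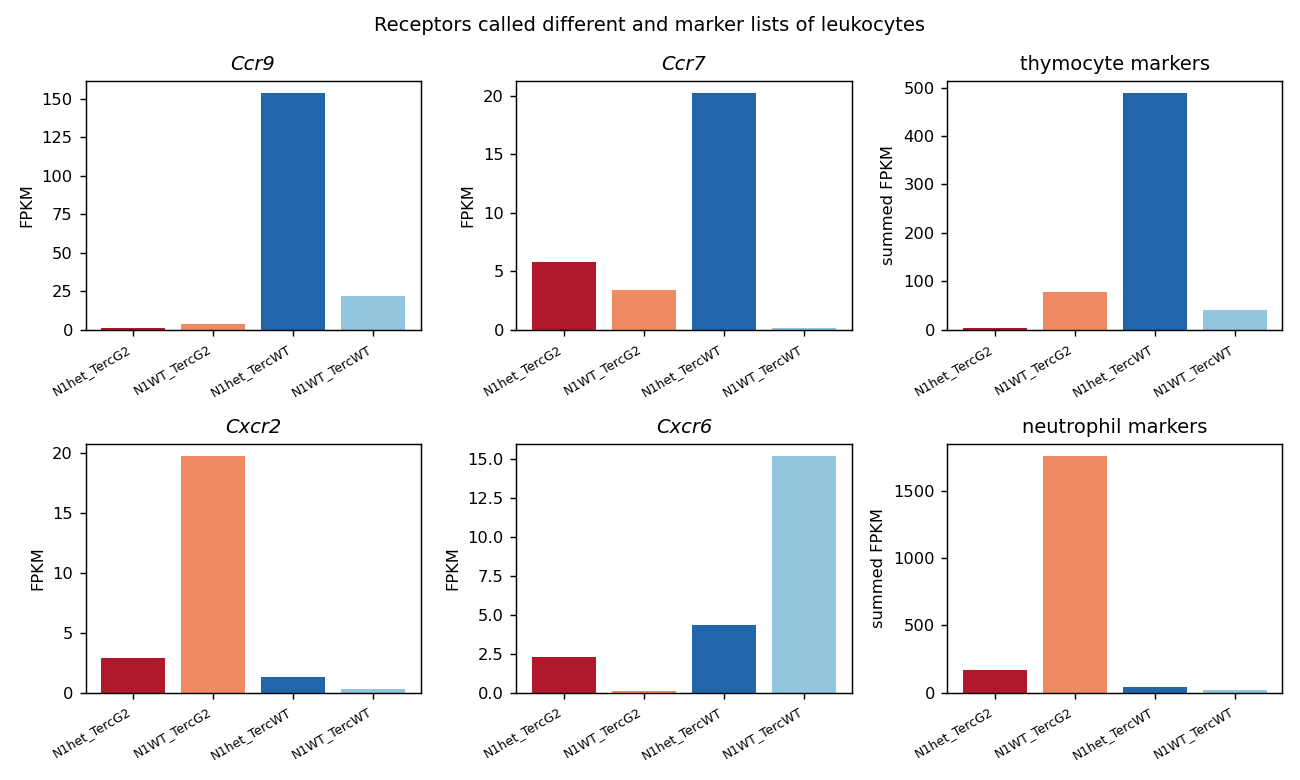
Bars give FPKM of the receptors called in the authors' deposited table (Ccr9, Ccr7, Cxcr2 and Cxcr6) and the summed FPKM of the thymocyte and neutrophil markers in each group; each panel has its own axis from 0. Ccr9 and the thymocyte sum peak in N1het_TercWT, Cxcr2 and the neutrophil sum peak in N1WT_TercG2, and Cxcr6 peaks in N1WT_TercWT.

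The receptors of Cxcl12 were among the most abundant. Cxcr4, the signalling receptor of Cxcl12 on leukocytes and progenitors, stood at 35.7 FPKM in N1het_TercG2, 51.8 FPKM in N1WT_TercG2, 78.7 FPKM in N1het_TercWT and 29.3 FPKM in N1WT_TercWT. Cxcr7, now named Ackr3, takes up Cxcl12 without G protein signalling, and stood at 47.2 FPKM in N1het_TercG2, 54.8 FPKM in N1WT_TercG2, 37.7 FPKM in N1het_TercWT and 26.2 FPKM in N1WT_TercWT. Cxcr4 had its peak where Cxcl12 was lowest, whereas Cxcr7 was higher in both TercG2 groups, as Cxcl12 was. Between the heterozygous groups the direction of Cxcr7 turned after rescaling without mitochondrially encoded genes, and that of Cxcl12 did not. Neither receptor was called in the authors' deposited table. Cxcr5, the B cell receptor for Cxcl13, stayed between 1.06 FPKM in N1het_TercG2 and 3.29 FPKM in N1WT_TercWT.

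Cx3cr1 varied less than the called receptors of T cells and neutrophils. This receptor, found on resident macrophages and patrolling monocytes, stood at 14.6 FPKM in N1het_TercG2, 11.6 FPKM in N1WT_TercG2, 13.0 FPKM in N1het_TercWT and 18.4 FPKM in N1WT_TercWT. None of its differences reached 2-fold. Ccr1, found on monocytes and neutrophils, stood at 3.74 FPKM in N1het_TercG2, 5.74 FPKM in N1WT_TercG2, 1.11 FPKM in N1het_TercWT and 1.11 FPKM in N1WT_TercWT, higher in both TercG2 groups. Xcr1, which marks cross-presenting dendritic cells, stayed between 0.495 FPKM in N1WT_TercG2 and 2.56 FPKM in N1WT_TercWT. The 5 dendritic cell markers summed to between 20.3 and 23.0 FPKM in the 4 groups, but singly they differed in their highest group. Of the 5, 2 were highest in N1het_TercG2 (Zbtb46 and Clec9a) and 2 in N1WT_TercWT (Itgax and Flt3). Cd209a was highest in N1WT_TercG2.

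The remaining receptors were near the lower end of the table. Ccr10, whose gene overlaps Cntnap1, reached 2.33 FPKM in N1WT_TercG2 and stayed at or under 0.418 FPKM in the other 3 groups. Ccr8 was listed at 1.73 FPKM in N1het_TercWT and at 0 in the other 3 groups. Ccr3, the eotaxin receptor, reached 1.33 FPKM in N1het_TercG2, the group in which Ccl11 was highest, and stood at 0.0887 FPKM in N1het_TercWT and 0 in both Notch1 wild type groups. Ccr6 was listed at 0 in both Notch1 wild type groups and at up to 0.321 FPKM in the heterozygous groups.

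Set side by side, ligands and receptors did not keep 1 order. The 3 ligands of Cxcr2 summed to 498 FPKM in N1het_TercG2, 357 FPKM in N1WT_TercG2, 175 FPKM in N1het_TercWT and 109.8 FPKM in N1WT_TercWT, while Cxcr2 peaked in N1WT_TercG2. For Ccr4 and its ligands Ccl17 and Ccl22 the highest group was N1het_TercWT on both sides, with ligand sums of 26.1 FPKM in N1het_TercG2, 18.3 FPKM in N1WT_TercG2, 56.6 FPKM in N1het_TercWT and 11.4 FPKM in N1WT_TercWT. Ccl19 and Ccr7 were opposed in N1WT_TercWT, where Ccl19 had its highest and Ccr7 its lowest value.

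Some members were past 2-fold in the same direction in both of 2 matched comparisons. Higher in Notch1 heterozygous valves in both telomere settings were 4 members (Ccl2, Ccl7, Ccl12 and Cxcl9), against 1.83% of all genes, and 0 members were lower in both, against 1.41%. These 4 were also the members past 2-fold with folds centred on all genes and after rescaling. With a pseudocount of 0.1 there were 8, against 5.49% of all genes. The added members were Ccl22, Ccr4, Ccr6 and Xcl1, each listed at 0 in N1WT_TercG2. Higher with short telomeres in both Notch1 genotypes were 7 members (Ccl2, Ccl7, Cxcl1, Cxcl2, Cxcl12, Cxcl13 and Ccr1), against 1.03% of all genes. After rescaling without mitochondrially encoded genes 3 of them were left (Ccl7, Cxcl1 and Cxcl13), against 0.603%. Lower with short telomeres in both genotypes were 4 of the 46 members (Ccl19, Ccl22, Ccr4 and Ccr9), against 5.78% of all genes. Opposite directions past 2-fold were found for Ccr9 and Cxcr6 between Notch1 genotypes, against 2.71% of all genes, and for Ccr7 between telomere settings, against 2.25%. In at least 1 of the 5 comparisons 39 of the 46 members were past 2-fold, against 54.3% of all genes.

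Of 33 other measured genes of chemokine biology (platelet chemokines, atypical receptors, G proteins and their regulators, and effectors of migration), those called were platelet genes. The authors' deposited table called 3 of the 33 genes as lower in N1het_TercWT against N1WT_TercWT, the platelet chemokines Ppbp and Pf4 and the platelet regulator Rgs18. Ppbp, which attracts neutrophils, stood at 85.9 FPKM in N1het_TercG2, 849.9 FPKM in N1WT_TercG2, 12.9 FPKM in N1het_TercWT and 1636 FPKM in N1WT_TercWT. It was also called lower in N1het_TercG2 against N1WT_TercG2 and N1WT_TercWT, and higher in N1het_TercG2 against N1het_TercWT, in the authors' deposited table. The summed markers of platelets (6 genes) had the same order, at 28.6 FPKM in N1het_TercG2, 532 FPKM in N1WT_TercG2, 4.50 FPKM in N1het_TercWT and 750.05 FPKM in N1WT_TercWT.

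The atypical receptor Ccrl2, which binds chemerin and is induced in activated leukocytes, was higher with short telomeres, at 37.1 FPKM in N1het_TercG2, 63.0 FPKM in N1WT_TercG2, 18.0 FPKM in N1het_TercWT and 16.2 FPKM in N1WT_TercWT. Rgs1, which dampens signalling by chemokine receptors, followed the order of the sum of the 28 ligands, at 131 FPKM in N1het_TercG2, 92.9 FPKM in N1WT_TercG2, 69.4 FPKM in N1het_TercWT and 37.9 FPKM in N1WT_TercWT. Rac2 and Dock2, which drive leukocyte migration, had their highest value in N1het_TercWT, at 112 and 20.2 FPKM, where the T cell sum also peaked. Over the 33 genes the median log2 fold was 0.37 in N1het_TercWT over N1WT_TercWT, against 0.09 for all genes, and 0.05 in N1het_TercG2 over N1WT_TercG2, against 0.06. In the first of these comparisons 9 (27.3%) were past 2-fold higher, against 10.9% of all genes, and 6 (18.2%) lower, against 7.53%. In the second, 6 (18.2%) were higher, against 12.5%, and 6 (18.2%) lower, against 10.8%. With short over long telomeres in the wild type groups 4 (12.1%) were higher, against 8.9%, and 6 (18.2%) lower, against 20.9%. In the heterozygous groups 5 (15.2%) were higher, against 4.71%, and 8 (24.2%) lower, against 16.8%. In N1het_TercG2 over N1WT_TercWT 5 (15.2%) were higher, against 7.48%, and 4 (12.1%) lower, against 17.2%, with Ppbp and Rgs18 called lower in the authors' deposited table.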

How the data were processed

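Leaflet RNA of 15 mice was amplified with a kit that keeps no strand (NuGen Ovation) and, per the labels' protocols, read as 100 bp pairs at 4 libraries to a lane. The submitters' processing notes name TopHat, SAMtools, Picard, FastQC and mm9, with no version or role. How FPKM was computed, with which annotation, and how genes were called is not given in the sources used here. Per the file headers, the deposited table has 1 FPKM for each of 18073 genes in each group, and 5 columns of 0 or 1 that are read here as the authors' calls. Columns 8 and 9 share a header, which names N1het_TercG2 against N1WT_TercG2. Each call column was assigned to the pair of groups in which every called gene differed by at least 4-fold. Column 8 thereby went to N1het_TercWT against N1WT_TercWT, a pair that no header names. Depth per library is unknown.

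Log2 folds used a pseudocount of 1 and no filter. No test was made, since the planned ones call for values of single libraries. The members, gene lists and rules were chosen with earlier results of these data known. Named members were those called, the 6 per direction and comparison with the largest fold and at least 3 FPKM in the higher group, those with a mean of at least 10 FPKM and partners of named ligands and receptors, 42 in all. The other 4 are named to account for members outside this rule, and 1 of the 42 is not reported here, though all counts and sums hold it. Gene order, overlaps and promoters came from RefSeq on GRCm38 for 46 of 46 members, 34 of them with a promoter, and no coordinate was converted between that build and mm9. The assignment of calls was also run on simulated calls, drawn only from genes past 4-fold in the intended pair. Their recovery was thus built in and is no evidence for the pair given to column 8. Alternatives were a pseudocount of 0.1, a mean FPKM of at least 1, centring, rescaling without mitochondrially encoded genes and a 4-fold threshold. The work was done with matplotlib 3.10.9, pandas 2.3.3 and numpy 2.4.6 on Python 3.11.15.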

Additional observations from a re-analysis of the deposited data

Results flagged for a closer look

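The difference between Notch1 genotypes had opposite directions with short and long telomeres for Ccr9 and Cxcr6. For Ccr9 the log2 fold of N1het_TercG2 over N1WT_TercG2 was -1.27 and that of N1het_TercWT over N1WT_TercWT was 2.77, a difference of -4.04. For Cxcr6 the same folds were 1.54 and -1.61, a difference of 3.15. Ccr7 had opposite directions between telomere settings, with a log2 fold of -1.64 for N1het_TercG2 over N1het_TercWT and 1.97 for N1WT_TercG2 over N1WT_TercWT, a difference of -3.61. These differences were not tested, since each group has 1 pooled value.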

How the results depend on the processing

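With a 4-fold threshold the number of members past it was 9 in N1het_TercWT over N1WT_TercWT, 6 in N1het_TercG2 over N1WT_TercG2, 9 in N1WT_TercG2 over N1WT_TercWT, 8 in N1het_TercG2 over N1het_TercWT and 12 in N1het_TercG2 over N1WT_TercWT, against 18, 16, 25, 21 and 28 past 2-fold. Of all genes 3.96%, 5.63%, 7.49%, 5.35% and 5.27% were past 4-fold in the same order. The authors' deposited table called 2, 0, 4, 1 and 5 members in the same order. The members' median turned sign to 0.0936 with centring in N1WT_TercG2 over N1WT_TercWT and to -0.0655 with rescaling without mitochondrially encoded genes in N1het_TercG2 over N1het_TercWT, which lowers the values of both TercG2 groups. With a pseudocount of 0.1, 6 members had opposite directions between Notch1 genotypes, against 2 with 1 FPKM added, the others being Ccl25, Ccl27a, Cxcr2 and Cxcr3. Alternatives for members past 2-fold in both settings, the sums without Lyz2 or Ccl8 and the ligand sum with Ppbp and Pf4 were chosen after seeing the data. Of 210 log2 folds of named members (200 with a mean FPKM of at least 1) none past 2-fold changed sign under a pseudocount of 0.1, that filter, centring or rescaling, and 47 moved by over 1.5 times with the pseudocount of 0.1. The ligand sum was highest in N1het_TercG2 and lowest in N1WT_TercWT under rescaling and without Cxcl2 too, while N1het_TercWT then passed N1WT_TercG2, with 884 FPKM in N1het_TercWT and 699 FPKM in N1WT_TercG2 under rescaling, and 616 FPKM in N1het_TercWT and 531 FPKM in N1WT_TercG2 without Cxcl2. With Ppbp and Pf4 added the ligand sum was highest in N1WT_TercWT, at 2939 FPKM, followed by N1WT_TercG2, at 2281 FPKM. The receptor sum was highest in N1het_TercWT under rescaling and without Cxcr4, the receptor of highest mean level. Ccr9 held 44.8% of that sum in N1het_TercWT, and a sum without Ccr9 was not among the alternatives. No paired analysis was possible because the deposited columns carry no replicates. For the same reason the replicate block, leaving out replicates and the count models were not run.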
